A study of Mus musculus with 12 samples.

Results

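The nuclear genes of oxidative phosphorylation were followed through 12 hippocampal RNA libraries from control mice and mice with the chromatin remodeller gene Atrx deleted in neurons. Members were all annotated genes whose symbol begins with Nduf, Uqcr or Atp5, or with Cox and a digit from 4 to 8, together with Sdha, Sdhb, Sdhc and Sdhd. Symbols holding -ps or -rs were dropped, which removed 9 genes. This left 98 gene identifiers of 54532 in the quantification, under 97 symbols, because Atp5o stands for 2 identifiers. By symbol, 49 of these were placed in complex I, 4 in complex II, 8 in complex III, 19 in complex IV and 18 in complex V. Ndufa4, which is carried with complex IV, is therefore counted in complex I in every sum, share and count by complex.

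There were 4 groups of 3 libraries: control females, female Atrx conditional knockouts (cKO), control males and male Atrx-cKO, all 3 months old. Hippocampal total RNA was depleted of ribosomal RNA before sequencing. The series places the deletion in neurons; no source used here gives the Cre driver, the strain or the deleted exons. Pairs of animals are mentioned for each sex in the series description, but the labels do not name the animal behind each library, so all p-values measure the spread between these libraries.

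The respiratory chain sits in the inner mitochondrial membrane. Complexes I and II pass electrons from NADH and succinate to ubiquinone, complex III hands them to cytochrome c, and complex IV reduces oxygen; complexes I, III and IV pump protons, and complex V, the ATP synthase, uses the resulting gradient to make ATP. A small set of subunits is encoded in the mitochondrial genome and all others in the nucleus, and in neurons this pathway supplies most of the ATP that restores ion gradients after synaptic activity.

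Levels below are scaled FPKM: the deposited FPKM (fragments per kilobase of transcript, adjusted for library size) were summed over the transcripts of a gene, a per-library background was subtracted and the libraries were rescaled to each other. FPKM is per length, so levels of different genes share a unit. Differences between libraries still went with transcript length, as given below, so ranks of short against long genes can vary with the library. The background, the median over 1438 olfactory and vomeronasal receptor genes, ranged from 0.144 to 3.02 FPKM in the females and from 0.0101 to 0.450 in the males, with cKO females 2 and 3 near the upper end. Summed coverage ranged from 1.16 to 8.64 Gb per library. The 8 excitatory neuron markers summed to 884 to 1104 in every library, whereas choroid plexus markers ranged from 14.4 to 5226. Atrx itself averaged 54.6 ± 5.72 (SD, n = 3) in control females and 38.9 ± 9.36 in cKO females, a log2 change of -0.51 (limma, adjusted p = 0.0972). It averaged 41.7 ± 1.08 in control males and 33.1 ± 3.41 in cKO males, a log2 change of -0.33 (limma, adjusted p = 1). Neither passed the threshold.

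All members together summed to 5241 to 6693 scaled FPKM in the 6 female libraries and to 8025 to 10545 in the 6 male libraries, without overlap. Complex I supplied 35.2% ± 0.731 (SD, n = 3) of that sum in control females, complex II 3.44% ± 0.317, complex III 10.6% ± 0.0961, complex IV 23.3% ± 0.611 and complex V 27.5% ± 0.173. In control males the shares were 34.5%, 2.62%, 10.9%, 26.4% and 25.6%. The share of complex II was lower in every control male than the control female mean, and its 4 subunits have long transcripts, with a median length of 1991 bases against 797 over the members tested.

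**Figure D1:**
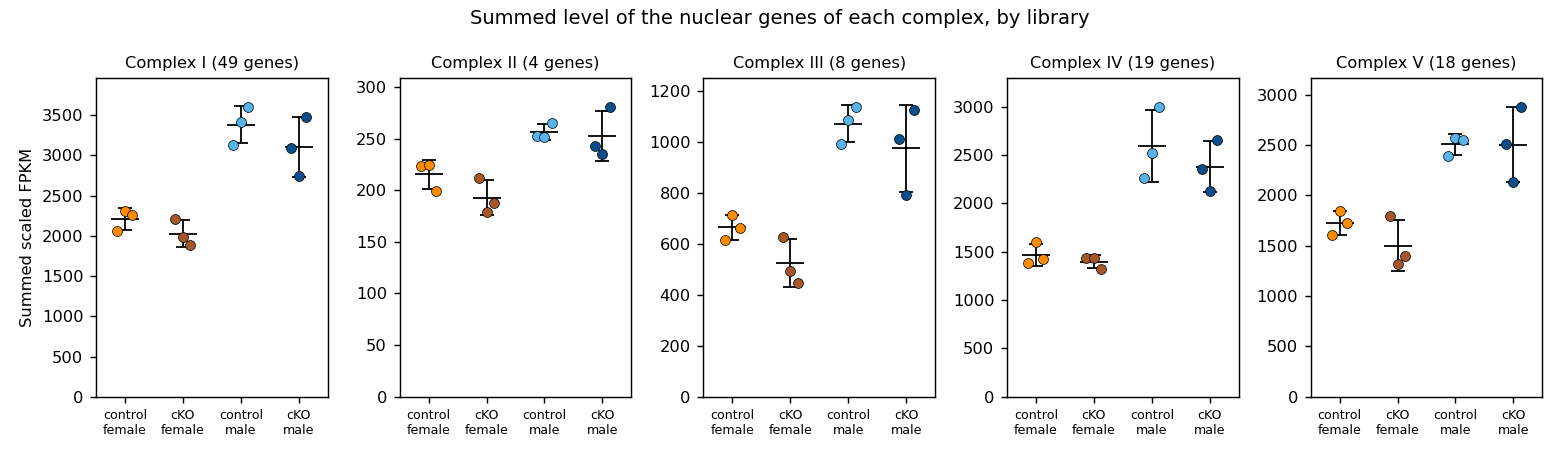
Summed scaled FPKM of the nuclear genes of each complex (vertical axis, starting at 0) in the 4 groups (horizontal axis); each point is 1 library, bars are the mean ± SD of 3 libraries. The male libraries sit above the female libraries in all 5 panels, most narrowly in complex II, and cKO male 2 is the lowest male in each.

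The member with the highest mean differed between the sexes. In control females it was Atp5b, the catalytic beta subunit of the F1 head of complex V, at 331 ± 15.9. Cox6c, a small nuclear subunit of complex IV, followed at 274 ± 71.1, and the mean of Atp5b lay within that spread. In control males Cox6c was highest at 657 ± 196. The mean of Atp5b there, 347 ± 6.51, stood below those of other members that included Cox7b, Uqcrh and Atp5k. Atp5k, a small subunit of the membrane part of complex V, averaged 420 ± 56.2. Within complex I, Ndufb10 (161 ± 25.8) and Ndufb9 (151 ± 2.31), both accessory subunits, did not differ beyond their spread in control females, and Ndufb9 was the higher in control males at 281 ± 25.0. Uqcrh, the hinge protein, had the highest mean in complex III and Sdha, the flavoprotein of succinate dehydrogenase, in complex II, in the controls of both sexes. The libraries of Uqcrb, at 195 ± 21.4 in control females and 325 ± 35.1 in control males, overlapped those of Uqcrh. Over the 6 control libraries the lowest tested member of each complex was Ndufaf3, an assembly factor, in I at 4.63, Sdhc in II at 11.6, Uqcrq in III at 12.0, Cox7b2 in IV at 1.55 and Atp5s in V at 5.42.

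Subunits with isoforms showed the ubiquitous form at high and the muscle, lung or testis form at low level. Cox4i1, the common regulatory subunit of complex IV, averaged 115 ± 10.2 in control females, and its lung isoform Cox4i2 averaged 0.386 ± 0.387. Cox6a1 averaged 45.8 ± 2.71, against 1.26 ± 0.431 for the heart and muscle isoform Cox6a2. Cox6b1 averaged 130 ± 13.8 and the testis isoform Cox6b2 1.69 ± 1.47. Among the Cox7 and Cox8 genes, Cox7a2, Cox7a2l, Cox7b and Cox8a averaged 51.2, 73.1, 227 and 185, while Cox7a1 and Cox7b2 averaged 1.61 and 1.01. Cox8b was at 0.605 and Cox8c at 0.0552. Ndufa4, which is carried with complex IV, averaged 84.0 ± 3.32, and its relative Ndufa4l2 0.0271. The 3 genes for the c subunit of the ATP synthase ring, Atp5g1, Atp5g2 and Atp5g3, averaged 13.1 ± 9.61, 10.7 ± 2.86 and 34.6 ± 2.83; the first 2 did not differ beyond their spread.

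Several of these levels rest on sequence that other loci carry too. When the main transcript of each member was split into windows of 50 bases, 44 of 98 members shared at least 1 window with another annotated gene, 35 shared with a pseudogene, and 9 shared 50% or more of their windows. These were Atp5g2 (87.4%), Atp5l (68.5%), Atp5g1 (66%), Ndufa12 (53.8%), Cox7c (53.0%) and Atp5h (50.5%), which share mostly with pseudogenes, and Ndufb4c, Cox6c2 and the second Atp5o identifier, so the values of all 9 are uncertain. The rule also took in 4 genes that the GENCODE M21 annotation types as processed pseudogenes: Ndufa11b, Ndufb4c, Ndufs6b and Cox6c2. Both Ndufb4c and Cox6c2 carried high values and are shown here against their parent genes for that reason, chosen after their values were seen.

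Cox6c (chr15:35925886-35938246, minus strand) and Cox6c2 (chr12:56373593-56373823, minus strand) differ at 7 of 228 aligned coding bases, an identity of 96.9%. The stretch below covers coding bases 2 to 61 of Cox6c, with the 4 differing positions in capitals (reference sequence, GRCm38.p6, 5′ to 3′).
Cox6c: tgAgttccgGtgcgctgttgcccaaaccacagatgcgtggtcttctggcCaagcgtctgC
Cox6c2: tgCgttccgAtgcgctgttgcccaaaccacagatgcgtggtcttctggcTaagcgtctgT
The coding sequence of Ndufb4 (chr16:37647170-37654453, minus strand), 387 bases long, has no difference from Ndufb4c (chr15:73809507-73809896, minus strand); its first 60 bases serve for both.
Ndufb4 and Ndufb4c: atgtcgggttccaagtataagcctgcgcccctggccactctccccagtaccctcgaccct
Every 50-base window of Ndufb4c occurs in Ndufb4, and 37.0% of the windows of Ndufb4 occur in Ndufb4c. Fragments from this coding sequence cannot be assigned to either locus by sequence, and the 2 genes are therefore reported as uncertain in their split.

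Promoters of respiratory chain genes are known for sites of the nuclear respiratory factor NRF1, of the ETS factor GABPA, of SP1 and of YY1. RefSeq promoters on GRCm38.p6, from 250 bases before to 50 after the start, were matched to 69 of the 91 tested members and to 8964 tested genes in all. The letters GCATGCGC of NRF1 stood in 12 members (17.4%) against 5.60% of the tested genes and 2.73% of all 32544 promoters, on either strand. The ETS letters CCGGAAG stood in 17 members (24.6%, against 18.5% and 8.91%), and the YY1 letters AAGATGGC in 8 (11.6%, against 4.89% and 2.77%), all 8 of them in complex I. Complex I also supplied 37 of the 69 matched member promoters. SP1, as GGGCGG, went the other way, with 31 members (44.9%) against 65.5% of tested genes and 35.9% of all promoters. The 4 words do not contain one another but can overlap on the sequence. Median GC content was 57.3% over these member promoters and 61.3% over those of all tested genes. Matches are descriptions of these windows, not sites. The following 150 bases before the RefSeq start were chosen because each holds a match and nearly all of it lies outside the annotated gene, and after their matches were seen; matches on either strand are in capitals, NRF1 in Ndufa11, ETS in Sdhd and Uqcrh, and SP1 in Ndufb8.
Ndufa11 (chr17:56717612-56717761, plus strand): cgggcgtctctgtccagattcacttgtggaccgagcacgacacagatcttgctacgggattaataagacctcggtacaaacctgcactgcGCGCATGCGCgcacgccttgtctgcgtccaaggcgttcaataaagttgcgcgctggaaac
Sdhd (chr9:50603850-50603999, minus strand): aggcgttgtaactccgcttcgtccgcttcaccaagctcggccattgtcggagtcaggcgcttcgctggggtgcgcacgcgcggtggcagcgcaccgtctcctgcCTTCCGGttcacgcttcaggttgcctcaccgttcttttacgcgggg
Uqcrh (chr4:116075071-116075220, minus strand): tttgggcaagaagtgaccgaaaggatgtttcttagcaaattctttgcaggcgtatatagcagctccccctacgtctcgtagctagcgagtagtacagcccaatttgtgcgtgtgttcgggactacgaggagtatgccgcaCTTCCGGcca
Ndufb8 (chr19:44555443-44555592, minus strand): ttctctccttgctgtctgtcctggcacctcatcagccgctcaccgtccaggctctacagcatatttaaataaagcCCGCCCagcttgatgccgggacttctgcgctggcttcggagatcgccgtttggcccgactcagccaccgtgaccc

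Control males against control females asked for the baseline that the deletion is read against. Of the 91 members tested, 36 were higher in control males and 0 lower, where 4.24% of all 15971 tested genes were higher and 1.89% lower (limma, adjusted p under 0.05 over all tested genes). At an unadjusted p under 0.05 there were 55 members and 3526 genes (22.1%). The estimate was above 0 in 86 of 91 members, and the members' median log2 difference was 0.59 against -0.04 over all tested genes. Complex I, with Ndufa4 placed there by its symbol, held 19 of the 36, complex IV 9, complex V 5, complex III 3 and complex II 0. The groups did not overlap in 62 members with the males higher (21% of all tested genes) and in 1 with the males lower, Ndufa10 (23.7%). Among all 15971 tested genes, limma called 145 without control male 3 and 2459 without cKO female 1. Leaving out 1 library changed the number of members called to 9 without control male 3, to 13 without control female 1, and to 15 without control female 3 or without control male 2. It was 51 without cKO female 1, and also 51 without cKO females 2 and 3, which enter only the shared estimate of spread.

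Of the accessory class of complex I, which includes the pseudogene Ndufb4c and, by its symbol, Ndufa4, 15 of 31 tested were called. Ndufb4, an accessory subunit of the membrane arm, had scaled FPKM of 30.4, 33.0 and 32.0 in control females and of 54.1, 62.6 and 66.2 in control males. The log2 difference was 0.92 (SE 0.125, limma adjusted p = 0.00495), and it passed under each of the 26 alternative settings. Its processed copy Ndufb4c stood at 53.9, 60.4 and 57.1 against 99.9, 118 and 126 (log2 0.99, SE 0.127, limma adjusted p = 0.00384). Neither pair of groups overlapped. Fragments of the shared coding sequence cannot be assigned to either locus, so the values of Ndufb4 and Ndufb4c are uncertain and are not separate observations. Ndufs5, an accessory subunit with a disulfide-bonded fold, went from 53.8, 53.0 and 54.0 in control females to 96.9, 94.1 and 107 in control males (log2 0.88, SE 0.120, limma adjusted p = 0.00495). Its main transcript shares 41.2% of its windows with the pseudogene BC002163. Ndufb8 averaged 73.8 ± 0.993 and 134 ± 8.58, Ndufb9 151 ± 2.31 and 281 ± 25.0, and Ndufa6 63.0 ± 2.35 and 114 ± 14.3, with limma adjusted p-values of 0.00495, 0.00967 and 0.00567. Ndufa4 stood at 82.0, 87.8 and 82.2 in control females and at 145, 149 and 181 in control males (log2 0.90, limma adjusted p = 0.00559).

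The 7 core subunits of complex I, which carry the flavin and the iron-sulfur clusters, were split. Ndufv2, which holds an iron-sulfur cluster, was higher in males at 108, 121 and 133 against 69.0, 77.0 and 74.0 (log2 0.71, SE 0.125, limma adjusted p = 0.0108). Ndufs8, another iron-sulfur subunit, was higher too, at 22.6, 23.9 and 23.5 against 14.9, 15.8 and 14.3 (log2 0.62, SE 0.124, limma adjusted p = 0.0163). The other 5 did not pass. Ndufs1, the largest subunit, averaged 68.7 ± 5.21 in control females and 66.7 ± 0.487 in control males, and Ndufv1, which binds NADH and the flavin, 36.7 ± 1.53 and 36.5 ± 1.41. Ndufs3 and Ndufs7 had log2 differences of 0.15 and 0.24. Among 8 assembly factors named Ndufaf, 2 were called; Ndufaf5 averaged 31.2 ± 1.61 and 48.8 ± 2.19 (log2 0.64, limma adjusted p = 0.00670).

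No subunit of complex II passed. Sdha stood at 127, 129 and 112 in control females and at 123 to 129 in control males (log2 0.05, SE 0.0941, limma adjusted p = 0.813), so the groups overlapped. The iron-sulfur subunit Sdhb averaged 39.7 ± 1.89 and 55.5 ± 5.74 (log2 0.47, limma adjusted p = 0.0693), and the membrane anchors Sdhc and Sdhd had log2 differences of 0.46 and 0.48 with limma adjusted p-values of 0.128 and 0.0712. In complex III the core subunits Uqcrc1, Uqcrc2 and Uqcrfs1, the Rieske protein, had log2 differences of 0.06, 0.14 and 0.13, and none was called. Of its 5 small accessory subunits 3 were called. Uqcrh (chr4:116066965-116075071) stood at 178, 215 and 215 against 352, 414 and 424 (log2 0.97, SE 0.239, limma adjusted p = 0.0369), and Uqcrb at 176, 218 and 190 against 291, 324 and 361 (log2 0.74, SE 0.157, limma adjusted p = 0.0209).

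In complex IV, 9 of 12 genes other than the tissue isoforms were higher in control males and none of the 4 tested tissue isoforms; the 12 include the pseudogene Cox6c2, which was not called (log2 1.18, limma adjusted p = 0.0552). Cox7b, X-linked at chrX:106015700-106022450, stood at 218, 244 and 218 in control females and at 381, 417 and 477 in control males (log2 0.90, SE 0.148, limma adjusted p = 0.00822). Its start lies 86.3 kb above the highest coordinate of Atrx, 105929403, on the same chromosome. The 3 X-linked members, Ndufa1, Ndufb11 and Cox7b, had a median of 0.74 and the 88 autosomal members one of 0.59. Cox7c, uncertain for its shared windows, averaged 59.0 ± 8.16 and 114 ± 11.8 (log2 0.95, limma adjusted p = 0.00872), and Cox4i1 115 ± 10.2 and 225 ± 44.0 (log2 0.95, limma adjusted p = 0.0108). Cox6c averaged 274 ± 71.1 and 657 ± 196 (log2 1.25, SE 0.225, limma adjusted p = 0.0114), with control male 3 at 879. Cox5a and Cox5b, subunits on the matrix side, had log2 differences of 0.24 and 0.23 with adjusted p-values from limma of 0.350 and 0.584. In complex V the 2 largest subunits were level: Atp5a1 averaged 221 ± 13.2 and 229 ± 1.48, and Atp5b 331 ± 15.9 and 347 ± 6.51, with limma adjusted p-values of 0.828 and 0.816. Atp5l, the small g subunit of the membrane part and likewise uncertain, averaged 29.5 ± 2.77 and 52.6 ± 3.40 (log2 0.83, limma adjusted p = 0.00888). Among the c subunit genes none passed, at log2 differences of 0.73 for Atp5g1, -0.06 for Atp5g2 and 0.15 for Atp5g3.

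**Figure D2:**
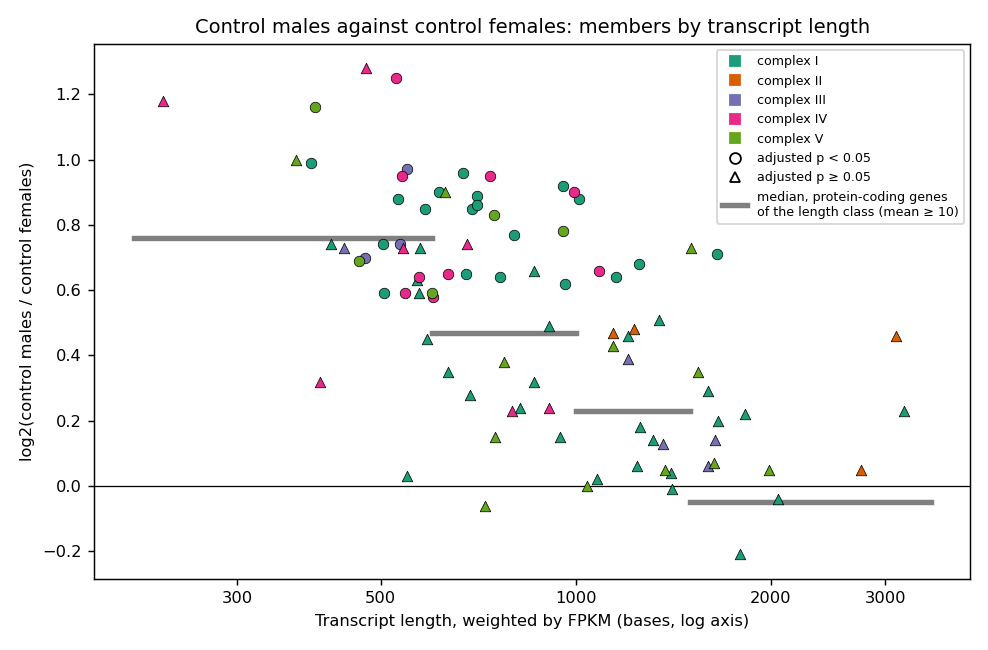
Log2 ratio of control males to control females (vertical axis) for each of the 91 tested members against its FPKM-weighted transcript length in bases (horizontal log axis), coloured by complex; circles passed an adjusted p of 0.05 in limma and triangles did not. Grey bars are medians of protein-coding genes averaging 10 or more in the same length class, falling from 0.76 under 600 bases to -0.05 at 1500 bases and over, and the members fall along with them.

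The difference went with transcript length. Across the 91 tested members, which share the same 6 libraries, the log2 difference and the log of transcript length had a Pearson correlation of -0.63 (Spearman -0.62), given as a description. The median difference was 0.73 for the 27 tested members under 600 bases, with 15 called. It was 0.65 for the 30 from 600 to 1000 bases (16 called), 0.39 for the 19 from 1000 to 1500 (4 called) and 0.20 for the 15 longer ones (1 called, Ndufv2). Protein-coding genes, members included, averaging 10 or more had medians of 0.76, 0.47, 0.23 and -0.05 in those classes, where 58 of 104, 128 of 400, 81 of 643 and 174 of 4046 were higher and 0, 2, 1 and 241 lower. With each library's trend on transcript length removed, 12 members were called, all higher (2.12% of all tested genes were called higher and 0.664% lower), and the members' median was 0.29 against -0.03. In the same length classes the members then had medians of 0.32, 0.35, 0.26 and 0.17. Protein-coding genes averaging 10 or more had 0.34, 0.17, 0.12 and 0.03. Of these, 12 of 104, 40 of 400, 30 of 643 and 246 of 4046 were called in either direction. The 12 included Ndufb4, Ndufs5, Ndufb8, Ndufa4, Ndufb9, Ndufaf5, Ndufv2, Cox4i1, Cox7b and Cox7c. Ndufv2, at 1653 bases the exception among the long members, kept a log2 difference of 0.69.

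The cKO libraries, which entered that fit only through the shared estimate of spread, were ordered in the same way. All cKO males lay above all cKO females in 67 members (20.4% of all tested genes) and below in 2 (20.8%), Ndufa10 and Ndufb10. Across all libraries, the 6 males lay above the 6 females in 48 members (10.1%) and below in 1 (6.22%), Ndufa10. The members' median level per library, relative to each gene's mean over the 12, ran from -0.53 to -0.15 in females and from 0.11 to 0.44 in males. Within the females cKO 2 and 3 were the lowest, at -0.53 and -0.48, and within the males cKO 2, at 0.11.

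**Figure D3:**
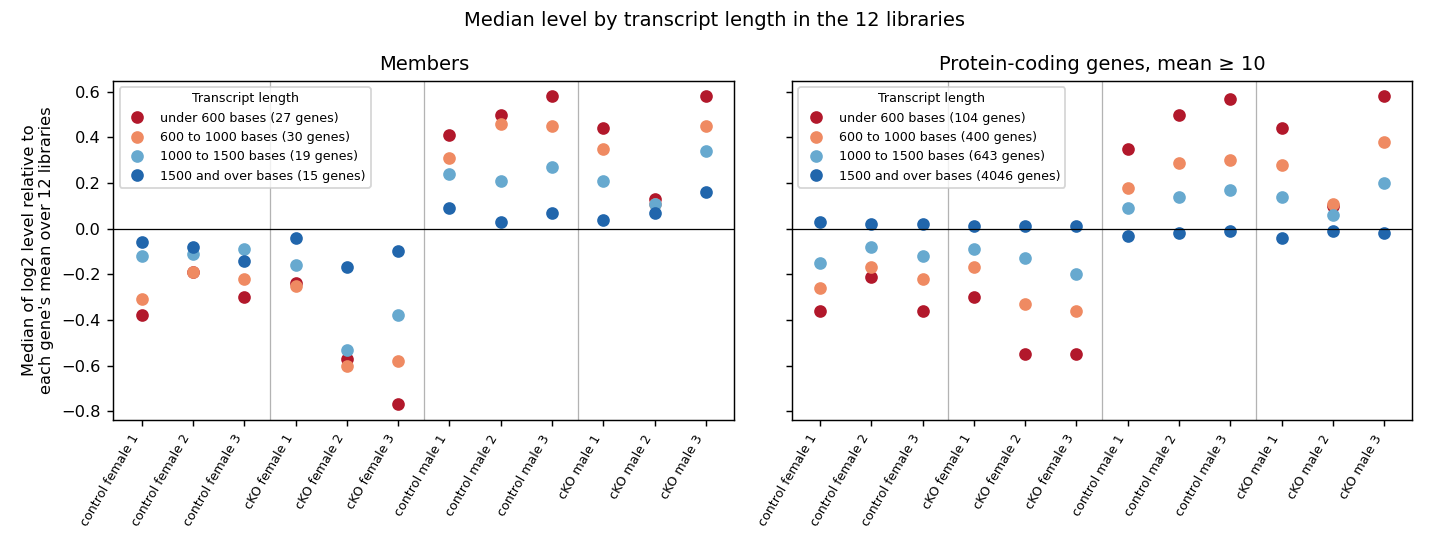
Median log2 level relative to each gene's mean over the 12 libraries (vertical axis) in each library (horizontal axis), by transcript length class, for members (left) and for protein-coding genes averaging 10 or more (right). In members under 600 bases the medians are 0.41 to 0.58 in control males and -0.38 to -0.19 in control females, and in those of 1500 bases and over 0.03 to 0.09 and -0.14 to -0.06.

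Other measures moved with the same libraries. The 92 cytosolic ribosomal protein genes, which also have short transcripts, summed to 6599 to 7725 in females and to 11198 to 16337 in males; 61 of 89 tested were higher in control males and none lower, with a median of 0.82. Markers of oligodendrocytes summed to 453 to 774 in females and to 861 to 1781 in males, with 5 of 5 estimates above 0 and 2 called. Astrocyte markers summed to 321 to 411 and to 450.3 to 619 (5 of 5 above 0, 3 called), and microglia markers to 25.7 to 44.2 and to 50.8 to 64.8 (5 of 5 above 0, 1 called). The 8 excitatory neuron markers had a median of -0.34, with 1 called lower. The 5 inhibitory neuron markers had a median of -0.46, with 2 called lower and 1 estimate above 0. The 5 endothelial and mural markers had a median of -0.09, with 0 called. The part of cell composition and of library background in the members' difference was not tested. In bulk tissue, fewer cells of a type and less RNA per cell cannot be told apart.

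Among genes of the pathway outside the rule, 3 of 8 electron carriers and complex III assembly genes were higher in control males, where 4.24% of all tested genes were: Cycs, Uqcc2 and Uqcc3. In complex IV assembly 5 of 20 tested were higher, among them Cox17, a copper chaperone. The count was 1 of 4 in complex II assembly, 1 of 4 in complex V assembly and inhibition (Atpif1, the ATP synthase inhibitor), and 0 of 8 in complex I assembly genes without an Nduf symbol. None of these lists had a gene called lower. No gene was called among 12 regulators of mitochondrial biogenesis, 12 citrate cycle enzymes or the 13 mitochondrially encoded subunits; by limma at an unadjusted threshold of 0.05, these lists held 2, 2 and 2 genes, against 22.1% of all tested genes.

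In females, the deletion was tested with cKO against control. No member passed the adjusted threshold in limma, as no gene of the 15971 did (0%); at an unadjusted p under 0.05 there were 21 members of 91 and 5388 genes (33.7%). The members' median log2 change was -0.16, against -0.01 over all tested genes, and 70 of 91 estimates were below 0. By length class the members' median was -0.35 under 600 bases, -0.15 from 600 to 1000, -0.23 from 1000 to 1500 and -0.1 above. Protein-coding genes averaging 10 or more had medians of -0.19, -0.06, -0.05 and -0.02, with 76 of 104 below 0 under 600 bases. With the length trend removed, the members' median was -0.15. By complex the medians were -0.15 in I, -0.18 in II, -0.44 in III, -0.11 in IV and -0.15 in V. The groups did not overlap in 15 members with cKO lower (8.37% of all tested genes) and in 3 with cKO higher (10.3%): Ndufaf7, Ndufs1 and Ndufs3. Before background subtraction and rescaling, the deposited FPKM of these 3 averaged 13.3, 74.7 and 39.0 in control females and 16.5, 74.5 and 38.1 in cKO females. Without cKO female 1 limma called 33 of 91 members, 29 of them lower, and 8011 of 15971 genes. The cKO group of that fit was cKO females 2 and 3. These libraries had the highest backgrounds, at 2.96 and 3.02 FPKM, and the lowest coverage, at 1.16 and 2.86 Gb. Without cKO females 2 and 3 instead, 0 members were called and the median was 0.01. Lists of cell type markers varied in how far they went with the female groups. The 5 microglia markers summed to 37.8 to 44.2 in controls and to 25.7 to 36.4 in cKO females, with 5 of 5 estimates below 0, a median of -0.74 and 3 at an unadjusted p under 0.05 in limma. The 5 inhibitory neuron markers summed to 156 to 180.4 and to 128 to 140.2 (5 of 5 below 0, median -0.48, 3 at that threshold), and the 5 oligodendrocyte markers to 567 to 774 and to 453 to 696 (5 of 5 below 0, median -0.34, 0 at that threshold). The oligodendrocyte sums overlapped between the groups, as did those of 3 other lists. Astrocyte markers summed to 339 to 364 and to 321 to 411 (median -0.07). Endothelial and mural markers summed to 37.2 to 42.0 and to 38.7 to 46.3 (median 0.06). Excitatory neuron markers summed to 1086 to 1097 and to 903 to 1104 (median -0.19). No marker passed the adjusted threshold, and the part of these lists in the members' values was not tested.

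The smallest p-value was that of Cox6b1 (chr7:30616861-30626151), a subunit on the intermembrane face of complex IV. It stood at 127, 145 and 118 in control females and at 91.0, 71.4 and 93.8 in cKO females (log2 -0.61, SE 0.140, limma adjusted p = 0.0972, exact permutation p = 0.1, the smallest that 3 against 3 allow). In males the same gene was level, at 187, 205 and 191 against 190, 166 and 224 (log2 -0.02). Atp5o, the oligomycin sensitivity conferring protein of the peripheral stalk, stood at 70.2, 80.1 and 79.9 against 57.6, 51.4 and 54.1 (log2 -0.49, SE 0.140, limma adjusted p = 0.0972). Uqcrfs1 stood at 42.2, 44.0 and 40.9 against 40.1, 24.7 and 29.5, with cKO female 1 next to the controls (log2 -0.45, SE 0.141, limma adjusted p = 0.0972). Upward, Ndufaf7, a methyltransferase needed for complex I assembly, stood at 13.3, 11.3 and 10.9 against 13.7, 16.2 and 20.6 (log2 0.48, SE 0.146, limma adjusted p = 0.0972). Ndufb2 and Uqcrc1 followed at log2 changes of 0.31 and 0.28. Among the catalytic subunits, Atp5b averaged 331 ± 15.9 in controls and 267 ± 51.0 in cKO females, with cKO females 2 and 3 at 228 and 248 and cKO female 1 at 324.

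In males limma called no member and no gene (0%); at an unadjusted p under 0.05 there were 5 members and 326 genes (2.04%). The members' median was -0.06 against 0.02, with 62 of 91 below 0. The groups did not overlap in 8 members with cKO lower (5.26% of all tested genes) and in 3 with cKO higher (6.43%). Ndufb10, an accessory subunit of the membrane arm, stood at 134, 246 and 251 in control males and at 128, 111 and 118 in cKO males. The lowest control lay close to the cKO libraries, and the log2 change was -0.76 (SE 0.219, limma adjusted p = 1). By transcript, ENSMUST00000144285 of Ndufb10 averaged 139.8 deposited FPKM in controls and 21.2 in cKO libraries, while ENSMUST00000045602 averaged 71.8 and 95.9. How fragments were divided between the transcripts was not tested. Ndufa12, whose value is uncertain as above, had a log2 change of -0.62, and Ndufb2 stood at 15.3, 16.1 and 17.9 against 23.1, 20.7 and 19.1 (log2 0.34, SE 0.132, limma adjusted p = 1). Cox7a1 and Atp5e, the epsilon subunit of F1, had log2 changes of 0.37 and 0.27. Markers of the choroid plexus summed to 1301 to 3687 in control males and to 45.6 to 2342 in cKO males, and their part in these values was not tested.

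**Figure D4:**
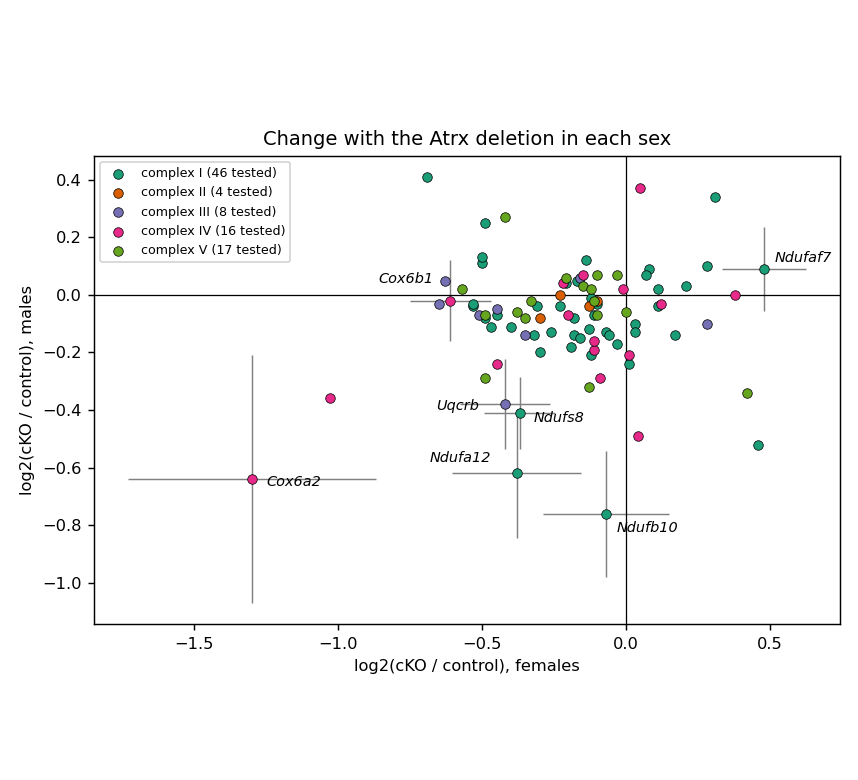
Log2 change of cKO over control in females (horizontal axis) and in males (vertical axis) for the 91 tested members, coloured by complex; grey bars are standard errors for the 7 labelled members. Most points lie left of the vertical line at 0, with 70 of 91 below 0 in females and 62 of 91 in males, and no member passed the adjusted threshold in either sex.

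Averaged over the sexes, 0 members passed in limma, where 0.00626% of all tested genes were called lower and 0% higher; 15 members and 3545 genes (22.2%) had an unadjusted p under 0.05. Without cKO female 1 limma called 27 of 91 members and 6421 of all 15971 tested genes. In 2 members, Ndufs8 and Uqcrb, all cKO libraries lay below all controls in both sexes (1.38% of all tested genes), and in none above (1.29%). Ndufs8 (chr19:3908870-3912717, minus strand), a core subunit that carries iron-sulfur clusters on the path to ubiquinone, stood at 14.9, 15.8 and 14.3 in control females and at 11.3, 12.7 and 10.5 in cKO females. In males it stood at 22.6, 23.9 and 23.5 against 18.9, 14.4 and 19.3. The mean log2 change was -0.39 (SE 0.0876, limma adjusted p = 0.207), so it did not pass over all tested genes. No permutation p is given for these 2 members, since the separation that chose them fixes it. Uqcrb (chr13:66900617-66905378, minus strand), a small subunit of complex III, stood at 176, 218 and 190 against 164, 150 and 122 in females and at 291, 324 and 361 against 268, 206 and 277 in males. Its mean log2 change was -0.40 (SE 0.111, limma adjusted p = 0.207), and 43.2% of its windows are shared with other genes. Cox6a2, at the low levels given above, had a mean log2 change of -0.97 (SE 0.305, limma adjusted p = 0.207) and was at 0 in cKO females 2 and 3 once their background of 2.96 and 3.02 FPKM was subtracted. Its deposited FPKM there were 2.24 and 2.78, and the deposited means ran the other way in females, at 1.79 in controls and 2.14 in cKO. Upward, Ndufb2, Ndufaf7 and Ndufs1 had mean log2 changes of 0.32, 0.28 and 0.19.

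**Figure D5:**
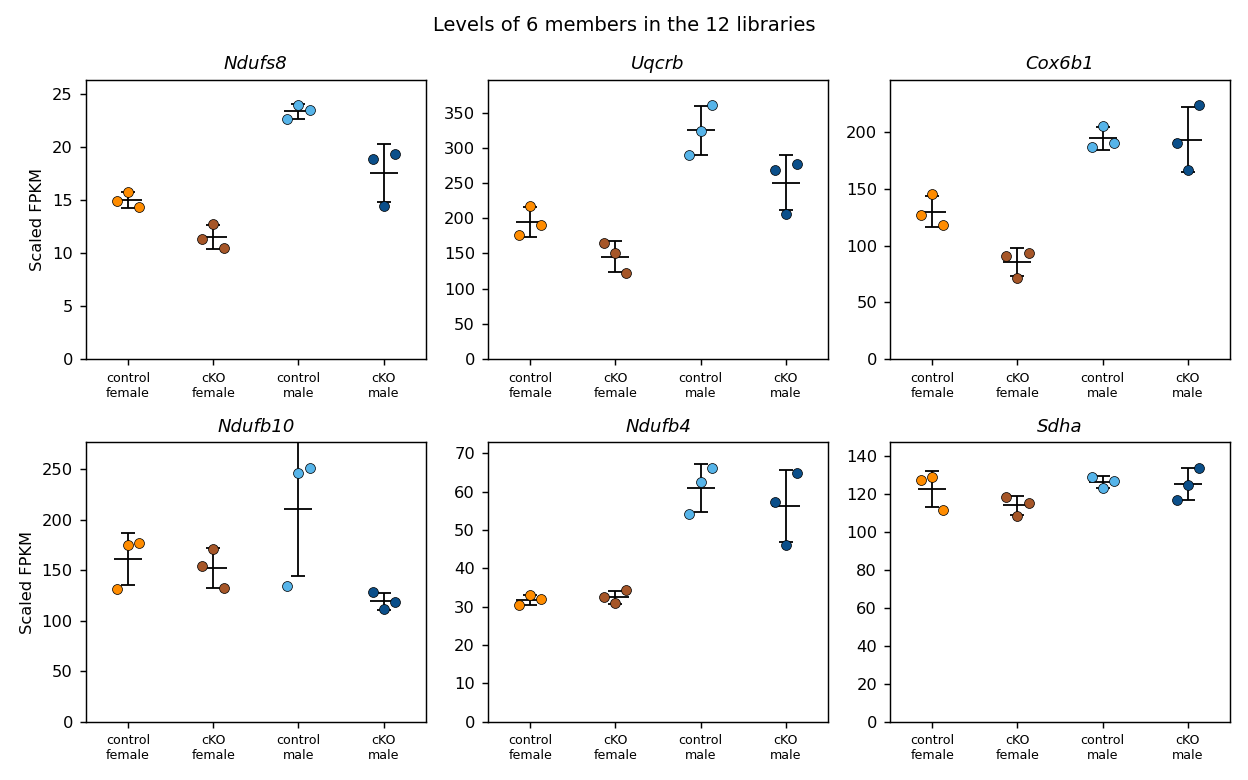
Scaled FPKM of 6 members (vertical axes, starting at 0) in the 4 groups; each point is 1 library and bars are the mean ± SD of 3. Ndufs8 and Uqcrb have all cKO libraries under the controls in both sexes, Cox6b1 has them under the controls in females, Ndufb10 has a control male at 134 near the cKO males, Ndufb4 is higher in males, and Sdha is level at 108 to 134.

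The cKO changes were also compared between the sexes, as the male change minus the female change. No member and no gene passed in limma (0%); 4 members and 1177 genes (7.37%) had an unadjusted p under 0.05. The members' median was 0.10 against 0.02. The smallest p-values were those of Atp5e, at 0.68 (SE 0.222, limma adjusted p = 0.522), and Cox6b1, at 0.59 (SE 0.198, limma adjusted p = 0.522), followed by Ndufa8 at 0.61. In the other direction Ndufb10, Uqcrc1 and Ndufaf7 stood at -0.69, -0.38 and -0.38. The female change of Cox6b1 was thus not shown to differ from the male one. Without cKO female 1, limma called 10 of 91 members and 4501 of all 15971 tested genes. The 13 mitochondrially encoded subunits, the partners of these proteins in the complexes, had median log2 changes of -0.06 in females and -0.70 in males, with 0 called in limma and 0 and 0 at an unadjusted p under 0.05; their sums ran from 26791 to 45727 in control females, from 29942 to 49839 in cKO females, from 31028 to 65173 in control males and from 24829 to 35676 in cKO males.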

How the data were processed

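The deposited tables list, per transcript, a read coverage and an FPKM value, both named in the file headers. Per the submitters' processing notes, the tools were HISAT2 2.0.4 and StringTie, and the build GRCm38.p6. No source used here gives the strand use or the annotation release, so reads of overlapping or antisense genes may be mixed. Read counts were not used; depth was taken as coverage times transcript length.

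FPKM were summed per gene over 137862 transcripts. The per-library background (the median over receptor genes named Olfr, Vmn1r or Vmn2r) was subtracted, values below 0 were set to 0, and libraries were scaled by the median ratio over 7703 genes. The 15971 genes tested averaged 1 or more and reached 1 in 3 libraries or more. Tests were run on log2(value + 0.5) with limma 3.58.1 in R 4.3.3 (trend and robust, 4 group means over all 12 libraries, two-sided, Benjamini-Hochberg over all tested genes, threshold 0.05). A fold change on this scale understates the change of low genes. Permutation tests were exact and two-sided; within a sex they cannot go below 0.1. The script was tested on simulated data. Transcript lengths are weighted by FPKM; gene types and windows come from GENCODE M21, whose coordinates match the files for 53499 of the 54409 genes found in both, and promoters from RefSeq.

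Members and lists were chosen with earlier results of these data known. Named by rule were the core subunits (1 is not reported here), isoform groups, the highest and lowest member of each complex, per comparison up to 12 members past the threshold per direction or else the 3 of smallest p, and members separated in both sexes; other members were chosen after their values were seen or are shown with their sequence. Alternatives covered background, scaling, pseudocount, filter, gene value, length trend, library weights, samples in the fit, a replicate block and left-out libraries.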

Additional observations from a re-analysis of the deposited data

How the results depend on the processing

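In control males against control females the members' median was above 0 in every setting run, and every member called was higher, except 1 with library weights. The counts of members called were 20 on the deposited FPKM, 3 on unsubtracted values scaled over all genes, 22 after quantile normalization, 23 without a filter on low values, 12 with the length trend removed and 58 with library weights (57 higher), and 9 to 51 when 1 library was left out. Medians were 0.51, 1.15, 0.39 and 0.29 on the deposited FPKM, the unsubtracted scale, after quantile normalization and with the length trend removed, and 0.54 to 0.66 with a library left out. All genes called numbered 295 without a filter, 1737 per longest transcript, 444 with the length trend removed, 4837 with weights, 3394 with only the groups compared, 2901 without cKO females 2 and 3, and 145 to 2459 with a library left out. The unsubtracted scale moved the median of all genes by more than 0.1: it stood at 0.40 there, and at -0.56 for cKO against control in females, where the members stood at -1.11.

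For cKO against control in females, members called were 20 with weights (18 lower) and 0 to 33 with a library left out. All genes called were 4 without background subtraction, 3 on the deposited FPKM, 10 after quantile normalization, 4 with a pseudocount of 0.1, 2 with a mean of at least 5, 8 per longest transcript, 6087 with weights, 6 without cKO females 2 and 3, and 0 to 8011 with a library left out. Medians were -0.29 without subtraction and -0.39 on the deposited FPKM, 0.01 without cKO females 2 and 3, and -0.27 to -0.12 with a library left out. In males, all genes called were 1 with a mean of at least 5, 1 per longest transcript, 5 with weights and 0 to 1 with a library left out; members called were 0 throughout, and medians were -0.30 on the unsubtracted scale and -0.15 to 0.01 with a library left out. For the difference between the sexes, weights called 4168 genes and 8 members, a left-out library 0 to 4501 and 0 to 10; medians were 0.29 on the deposited FPKM, 0.76 on the unsubtracted scale, -0.08 without cKO females 2 and 3 and 0.01 to 0.21 with a library left out. For the mean effect, genes called were 4 without subtraction, 4 on the deposited FPKM, 0 on the unsubtracted scale, 3 per longest transcript, 3 with the length trend removed, 5695 with weights and 1 to 6421 with a library left out. Members called were 18 with weights and 0 to 27, and medians -0.69 on the unsubtracted scale and -0.17 to -0.07. The cause of these shifts was not tested.

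On the unsubtracted scale several single members changed sign: in females Ndufaf7 (-0.39), Ndufb2 (-0.56) and Uqcrc1 (-0.70), in the difference Ndufaf7 (0.27), Ndufb10 (0.10) and Uqcrc1 (0.37), in the mean Ndufaf7 (-0.26), Ndufb2 (-0.22) and Ndufs1 (-0.44), and in control males against females Atp5g2 (0.46), Ndufa10 (0.37) and Ndufs1 (0.54). Uqcrc1 in females was at -0.01 without cKO females 2 and 3; Atp5g2 in control males against females was at 0.04 with weights and from -0.23 to 0.13 with a library left out, and Ndufs1 from -0.10 to 0.00, each highest without control female 3.

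Libraries with the same replicate number did not deviate together in every pair (correlations across genes from -0.264 to 0.316 for the female pairs and from -0.0952 to 0.212 for the male pairs), and the labels tie no number to a pair. With a replicate block, 28 members and 651 genes were called for control males against control females, 0 genes for the mean effect, and 0 members in every cKO comparison. Depth limits the low members: Cox7b2, at a mean of 1.55, lies under the 3.02 FPKM of background in cKO female 3. With only the groups compared, the mean effect and the difference between the sexes have no value, since they need all 4 groups.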

Other observations

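Among the 9 genes dropped for their symbol, Ndufb1-ps was expressed like a member. It is typed as a bidirectional promoter lncRNA in GENCODE M21. Its scaled FPKM averaged 59.8 ± 6.57 (SD, n = 3) in control and 43.8 ± 15.5 in cKO females, and 134 ± 26.4 in control and 119 ± 25.5 in cKO males. Ndufb7, an accessory subunit of complex I, stood at 131 in cKO male 3 and at 42.6 and 35.5 in the other cKO males. In that library its 3-exon transcript ENSMUST00000036996, of 623 bases, had 128.7 deposited FPKM, against 32.4 and 25.5 in the others, while the 2-exon transcript ENSMUST00000127162, of 4435 bases, had 0.3 against 13.4 and 12.1. Both genes were singled out after their values were seen.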
